A study of Mus musculus with 6 samples.

Results

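The mitochondrial genome of the mouse was read here as the 37 genes, of 55385 in the table, whose names begin with mt-: 13 protein genes, 2 rRNA genes and 22 tRNA genes. All 37 have the coordinates of the GENCODE M21 annotation of GRCm38, 28 on the plus strand and 9 on the minus strand. RNA was sequenced from the livers of 6 C57BL/6 mice aged 6 weeks, in 3 groups of 2. Wild-type controls (replicates 3 and 6) received 200 µL of PBS into the abdominal cavity, and wild-type mice (replicates 1 and 4) and Optn-/- mice (replicates 4 and 5) received acetaminophen at 500 mg/kg by the same route. All livers were taken 6 h later, and poly(A) RNA was selected, per the labels. Optn-/- mice lack optineurin, a receptor that takes part in clearing damaged mitochondria. Optn-/- mice given PBS were not analysed here. Nothing in the labels says whether mice shared a litter, cage or day, so p-values measure only the spread between these samples.

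The protein genes of this genome encode subunits of the respiratory chain and ATP synthase: complex I (mt-Nd1 to mt-Nd6 and mt-Nd4l), complex III (mt-Cytb), complex IV (mt-Co1 to mt-Co3) and complex V (mt-Atp6 and mt-Atp8). The rRNAs and tRNAs serve the ribosome inside the organelle that translates them. Each strand is transcribed as a long precursor that is cut mainly at the tRNAs, and most of the mRNAs then receive a poly(A) tail. Acetaminophen at high dose is activated in hepatocytes to a compound that binds proteins, many of them mitochondrial.

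The tRNA sequences below belong to genes named in the results, taken from the GENCODE M21 transcripts (GRCm38) and written 5′ to 3′ in the sense of the tRNA. Capitals mark the anticodon. The leucine (mt-Tl1) and glutamate (mt-Te) tRNA genes were among those that rose in treated wild type, though called in only 6 and 7 of 18 alternatives. The isoleucine (mt-Ti), glutamine (mt-Tq) and methionine (mt-Tm) tRNA genes, which lie next to each other, had the lowest fold changes there. As given below, such values count longer RNA and are not levels of the mature tRNAs.
mt-Tl1: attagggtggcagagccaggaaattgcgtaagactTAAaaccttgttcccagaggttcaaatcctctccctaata
mt-Te: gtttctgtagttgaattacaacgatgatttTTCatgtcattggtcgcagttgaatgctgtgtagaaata
mt-Ti: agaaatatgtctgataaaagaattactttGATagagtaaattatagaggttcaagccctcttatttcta
mt-Tq: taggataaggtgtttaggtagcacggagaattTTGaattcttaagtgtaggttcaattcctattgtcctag
mt-Tm: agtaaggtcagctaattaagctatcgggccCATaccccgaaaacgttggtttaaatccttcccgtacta

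A stretch of chromosome 1 holds nuclear copies of part of the mitochondrial genome. Of 10 listed entries, 7 matched a mitochondrial gene by sequence, and they lie between 24611535 and 24616197 on the minus strand (GRCm38). Gm10925 (24613974 to 24614651) equals mt-Atp6 over all 678 of its bases. The first 60 bases of each are shown because the ratio of this pair in FPKM differed between the groups, as given below with mt-Atp6. Capitals mark the 43 bases that mt-Atp6 shares with the end of its neighbour mt-Atp8.
mt-Atp6: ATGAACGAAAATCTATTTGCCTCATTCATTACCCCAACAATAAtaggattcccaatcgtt
Gm10925: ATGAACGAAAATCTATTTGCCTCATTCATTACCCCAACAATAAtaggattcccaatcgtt
The other copies were Gm28437 (mt-Co3), Gm28661 (mt-Co2), Gm28438 (mt-Nd3) and Gm10222 (mt-Nd4l), each without a mismatch over nearly the whole gene, Gm28439, which covers 876 of the 1378 bases of mt-Nd4, and Gm29216, which covers 483 bases of mt-Co1 with 1 mismatch. A read from such a stretch fits both places, so the division of counts between a gene and its copy rests on the authors' counting.

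Totals ran from 59143418 to 77292216 counts per library. Optn had 20.95 and 18.73 FPKM (fragments per kilobase of gene model, scaled to the library) in the controls, 9.17 and 9.19 in treated wild type and 0.316 and 0.457 in the treated knockout, as the labels say. The 9 matched hepatocyte markers held between 112000 and 153100 CPM (counts per 1e6 of a library's total). Skeletal muscle markers (12 of 12 matched, none at 0 throughout) summed to between 57.8 and 88.3 CPM in control replicate 3 and the treated wild type, and to between 0.58 and 1.01 in control replicate 6 and the knockout. The knockout and treated wild type therefore cannot be told apart from this division of the libraries. Neuron markers stood at 138.3 CPM in treated wild-type replicate 4 and between 6.64 and 14.8 elsewhere. Intestine markers stood at 61.0 and 78.7 CPM in controls, 41.0 and 38.3 in treated wild type and 75.9 and 82.8 in the knockout, so that treated wild type was lowest. Heart markers lay between 0.303 and 1.41. The 4 brown fat markers summed to 29.9 and 41.9 CPM in controls, 55.5 and 77 in treated wild type and 140.7 and 103.3 in the knockout, and these groups did not overlap. Nearly all of that sum was Elovl3, a fatty acid elongase, while Ucp1, which defines brown fat, had 4 counts in knockout replicate 4 and 0 in the other 5 libraries. Neutrophil markers lay between 1.84 and 3.28 in the controls and between 55.2 and 153 after acetaminophen, and platelet markers between 2.99 and 3.53 and between 10.3 and 23.5. The part of these cells in the results below was not tested. In whole liver, fewer cells of a type and less RNA per cell cannot be told apart.

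As a share of all counts, the mitochondrial genome overlapped between the groups. The 37 genes took 7.46% and 6.52% of counts in control replicates 3 and 6, 7.62% and 6.69% in treated wild-type replicates 1 and 4, and 6.49% and 9.24% in treated knockout replicates 4 and 5. The widest range was within the knockout. The group means were 6.99% ± 0.669 (SD, n = 2) in controls, 7.16% ± 0.660 (SD, n = 2) in treated wild type and 7.86% ± 1.95 (SD, n = 2) in the knockout. The 95% Wilson interval of a library's share reached at most 0.00718 percentage points to either side, which covers counting error only. Shares were not tested, since with 2 livers a group the smallest two-sided p of an exact permutation is 0.333.

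The parts of this share differed. The rRNAs took 0.144% and 0.128% of counts in controls, 0.236% and 0.292% in treated wild type and 0.184% and 0.198% in the knockout. These 3 groups did not overlap, with treated wild type highest. The 9 genes of the minus strand took 0.116% and 0.106% in controls, 0.189% and 0.165% in treated wild type and 0.170% and 0.238% in the knockout, so that every treated liver lay above both controls. Most of that sum was mt-Nd6, and the 8 tRNAs of the minus strand together took at most 0.0168% of counts. The 22 tRNAs took between 0.0118% and 0.0227%, and the treated livers again lay above the controls, but narrowly. Control replicate 3 was at 0.0156% and treated wild-type replicate 4 at 0.0161%. The largest part of this sum was 1 gene, mt-Te, at 58.7 and 44.4 CPM in controls and 81.2 to 113.1 after acetaminophen. The order is therefore not a result about the tRNAs as a class. The protein genes other than mt-Atp6 took 7.18% and 6.26% in controls, 6.81% and 5.94% in treated wild type and 5.81% and 8.38% in the knockout, which overlapped.

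**Figure D1:**
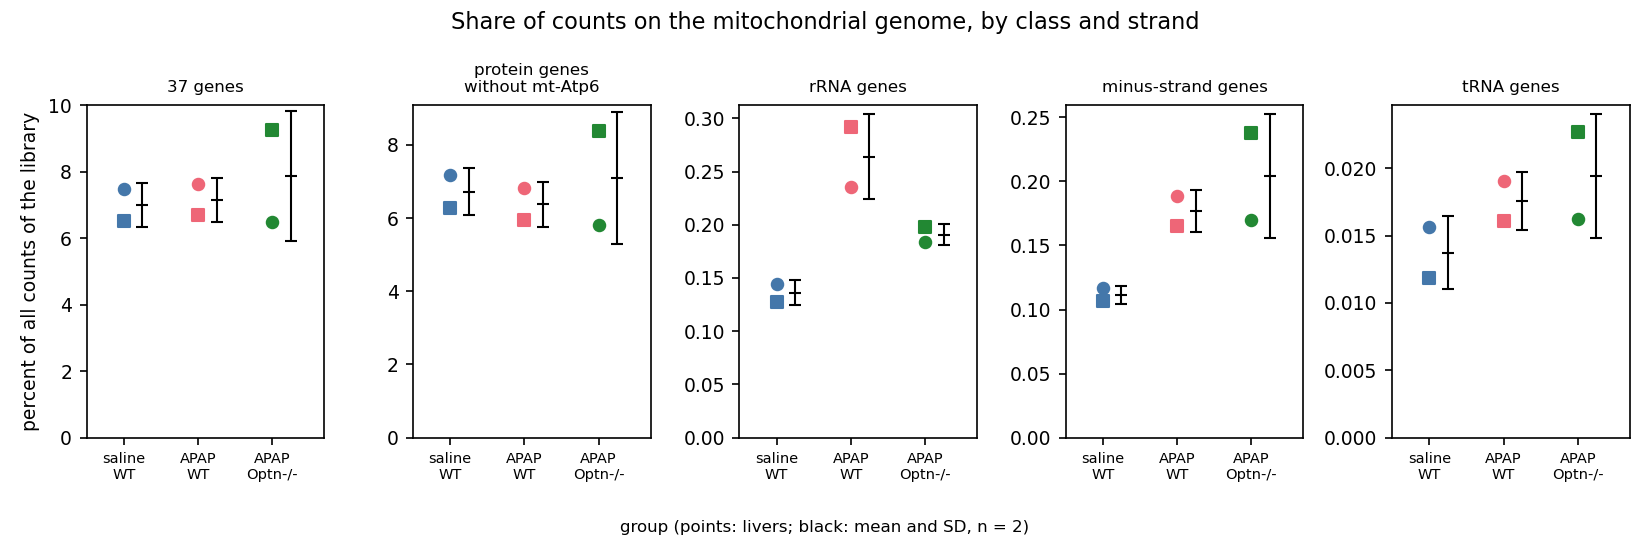
Share of each library's counts (percent, each panel with its own axis from 0) held by all 37 genes, by the protein genes without mt-Atp6, by the rRNAs, by the minus strand and by the tRNAs. Coloured points are livers (circle and square: the replicates of a group), and black marks are the mean and SD (n = 2). The 37 genes overlap between groups, whereas both control livers lie below every treated liver in the rRNA, minus-strand and tRNA panels. In the tRNA panel the gap is narrow, and the largest part of the sum is mt-Te.

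In wild type, acetaminophen was set against saline with edgeR's quasi-likelihood test. Of the 37 genes, 35 passed the filter on low values (a mean of at least 0.5 FPKM), and 6 of these rose and 0 fell at a Benjamini-Hochberg adjusted p under 0.05, with 13 at an unadjusted p under 0.05. Over all 11677 genes tested, 8.36% rose and 5.92% fell. DESeq2 called 10 members higher and 2 lower, beside 1684 higher and 1423 lower of the same 11677 genes. The 6 were the protein genes mt-Atp6 and mt-Nd6, the rRNAs mt-Rnr1 and mt-Rnr2, and the tRNAs mt-Te and mt-Tl1. The median log2 fold change of the 35 was 0.54, beside 0.03 over all genes, and 28 of 35 were above 0. That median rests in part on single libraries: it was 0.21, with 21 of 35 above 0, without treated wild-type replicate 1, and 0.26, with 26 of 35 above 0, without control replicate 6 or with the division by muscle markers as a term. Both treated livers have the muscle markers, so with that term the comparison rests on control replicate 3 alone. The term thus repeats the alternative without control replicate 6, and the alternatives counted below are not independent. On library totals alone it was 0.32, beside -0.19 over all genes. Without control replicate 3, without control replicate 6, or with the division by muscle markers as a term, the members called were mt-Atp6 and mt-Rnr2. mt-Nd6 and mt-Te were also lost without treated wild-type replicate 1 or 4, mt-Rnr1 without replicate 4, and mt-Tl1 without replicate 1 or either knockout library. In each of these fits fewer of all genes were called higher too, so such losses are not particular to the members.

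In treated wild type, mt-Atp6 of complex V showed the largest called difference among the members on the counts as deposited, while mt-Atp8 was not called. mt-Atp6 (ENSMUSG00000064357, 7927 to 8607, plus strand) encodes the subunit that forms the proton path of ATP synthase with the ring of c subunits. Its FPKM was 1589 and 1533 in the controls, 7508 and 5900 in treated wild type and 6373 and 8648 in the treated knockout. Each treated liver was above both controls, by more than the spread within any group. It rose 4.98-fold in treated wild type, a log2 fold change of 2.32 ± 0.22 (SE, adjusted p = 0.00398 by edgeR), and it was called in 18 of 18 alternatives. Among these, only the sum with its nuclear copy, given below, changes the deposited division of counts. The other alternatives cannot test that division. Against the 12 other protein genes as the scale, the log2 fold change was 2.16. Among the livers with muscle markers alone, treated wild type against control replicate 3, the log2 ratio of its CPM was 2.06, with no test. It ranked 11 of 13 protein genes by FPKM in both controls and 3 in all 4 treated livers. It held 1.62% and 1.79% of the counts of the 13 genes in controls and between 6.83% and 7.52% after acetaminophen.

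The copy of identical sequence did not show this difference. Gm10925 had 6767 and 6257 FPKM in controls, 7384 and 5956 in treated wild type and 6007 and 8883 in the knockout. These values overlapped, with a log2 fold change of 0.25 ± 0.23 (SE, adjusted p = 0.506 by edgeR) in treated wild type. mt-Atp6 stood at 0.235 and 0.245 of Gm10925 in the controls, at 1.02 and 0.991 in treated wild type and at 1.06 and 0.974 in the knockout. For the 4 other nearly full-length pairs the ratio lay between 0.986 and 1.11 in every library. With the counts of mt-Atp6 and Gm10925 added together, the log2 fold change was 0.94 in place of 2.32 and the pair stayed past the threshold. The value of 0.94 is below those of mt-Rnr2 (1.30) and mt-Tl1 (1.29), so the first rank of mt-Atp6 rests on the division of counts. None of the 7 copies was called by edgeR in any of the 3 comparisons.

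**Figure D2:**
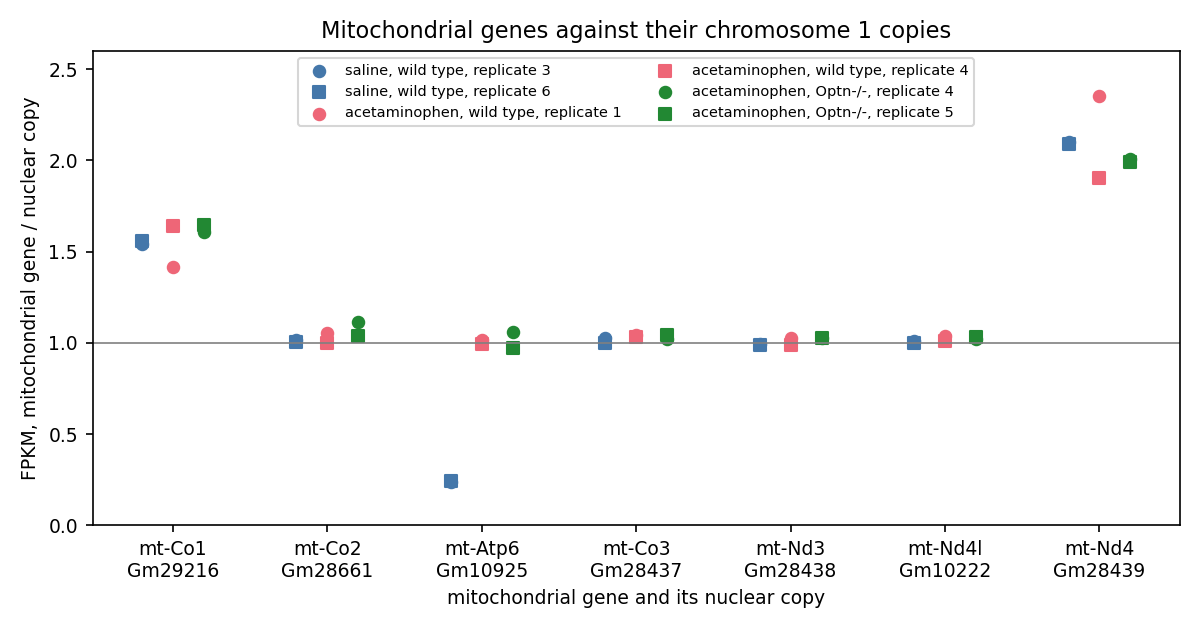
FPKM of 7 mitochondrial genes divided by the FPKM of their nuclear copies on chromosome 1 (vertical axis, ratio, linear from 0), for each liver (colour: group, shape: replicate). mt-Atp6 is at 0.235 and 0.245 of Gm10925 in the 2 controls and near 1 in the 4 treated livers, while mt-Co2, mt-Co3, mt-Nd3 and mt-Nd4l stay near 1 throughout.

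mt-Atp8, the other mitochondrial subunit of complex V, is transcribed with mt-Atp6 on a shared mRNA. Its FPKM was 4238 and 4109 in controls, 3907 and 3659 in treated wild type and 4095 and 5893 in the knockout. In treated wild type its log2 fold change was 0.07 ± 0.19 (SE, adjusted p = 0.832 by edgeR). The ratio of mt-Atp6 to mt-Atp8 in FPKM was 0.375 and 0.373 in controls and between 1.47 and 1.92 after acetaminophen, with no overlap. mt-Co3, which follows mt-Atp6 on the genome, gave a like pattern: mt-Atp6 was at 0.252 and 0.279 of it in controls and between 1.32 and 1.41 after acetaminophen.

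In complex I, the complex that takes electrons from NADH, 1 of 7 genes rose in treated wild type. mt-Nd6 (ENSMUSG00000064368, 13552 to 14070) is the only protein gene of the minus strand. It had 1845 and 1727 FPKM in controls, 3105 and 2710 in treated wild type and 2800 and 3927 in the knockout, so that no treated liver overlapped the controls. The log2 fold change was 0.92 ± 0.19 (SE, adjusted p = 0.0320 by edgeR), and it was called in 7 of 18 alternatives, with adjusted p between 0.000169 and 0.132. mt-Nd5, which lies opposite and overlaps mt-Nd6 by 14 bases, had 1252 and 1282 FPKM in controls, 1734 and 1761 in treated wild type and 1876 and 2840 in the knockout. Its log2 fold change in treated wild type was 0.67 ± 0.20 (SE), which did not pass (adjusted p = 0.0797 by edgeR). The counter's use of strand is not given in the sources used here, so reads of mt-Nd6 and of RNA from the strand opposite to it cannot be told apart, and the same holds for the minus-strand tRNAs. The 5 remaining genes of complex I had log2 fold changes from -0.22 (mt-Nd2) to 0.41 (mt-Nd1).

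Complexes III and IV gave no call. mt-Cytb, the electron-carrying cytochrome b, had 7126 and 6699 FPKM in controls, 8025 and 6802 in treated wild type and 6979 and 10175 in the knockout, and a log2 fold change of 0.31 ± 0.22 (SE, adjusted p = 0.372 by edgeR). The complex IV genes, which encode the core of cytochrome c oxidase, had log2 fold changes between -0.01 and 0.09 in treated wild type. mt-Co1, first of the 13 in every library, had 16887 and 14184 FPKM in controls, 14495 and 13143 in treated wild type and 11831 and 17289 in the knockout. Its groups overlapped. mt-Cytb was second in every library and mt-Nd3 last, at a mean of 966 FPKM ± 183 (SD, n = 6). Next in order after mt-Cytb, mt-Nd1, mt-Co3, mt-Nd2, mt-Atp6 and mt-Co2 had means between 5144 and 5692 FPKM, closer together than the SD of any of them.

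**Figure D3:**
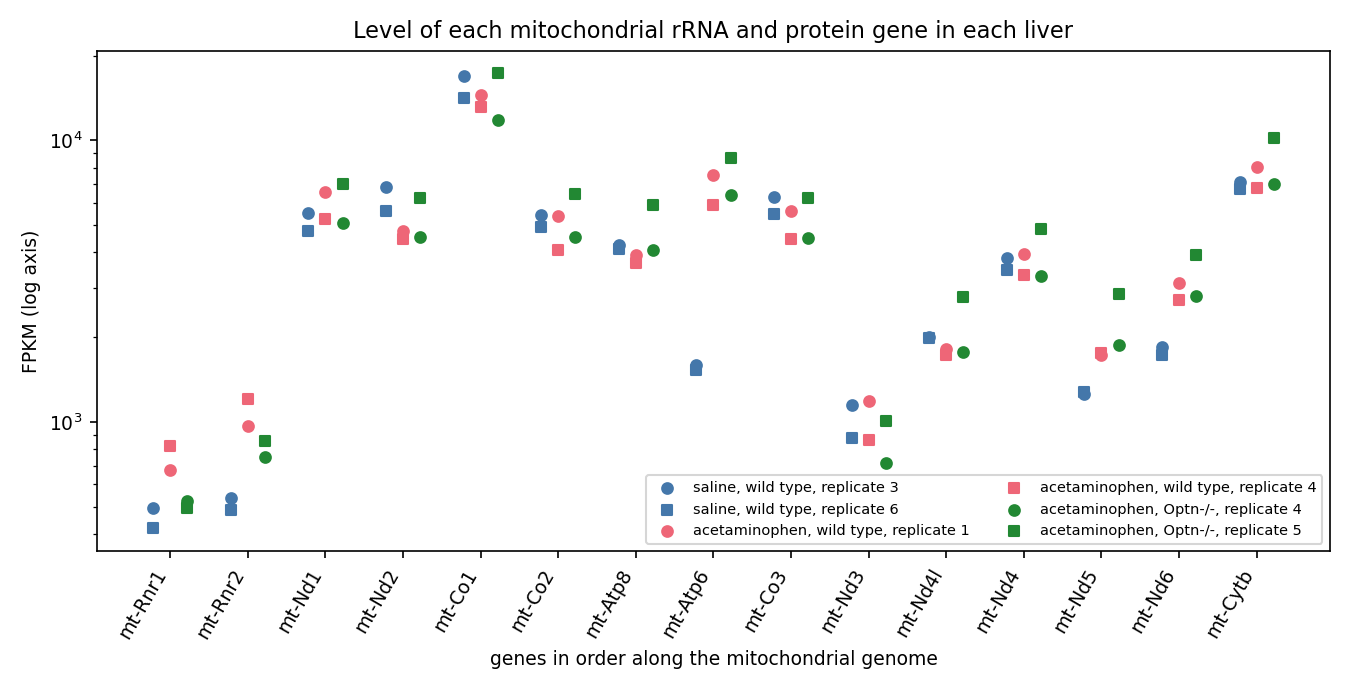
FPKM (log axis) of the 2 rRNA and 13 protein genes in genome order, for each liver (colour: group, shape: replicate). The 2 control livers lie far below the 4 treated livers at mt-Atp6 (1533 and 1589 against 5900 to 8648), and below them by less at mt-Rnr2, mt-Nd5 and mt-Nd6.

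Both rRNAs rose in treated wild type. mt-Rnr2, the large-subunit 16S rRNA (ENSMUSG00000064339, 1094 to 2675, plus strand), had 535 and 486 FPKM in controls, 967 and 1208 in treated wild type and 753 and 853 in the knockout. The 3 groups did not overlap. Its log2 fold change in treated wild type was 1.30 ± 0.15 (SE, adjusted p = 0.00758 by edgeR), and it was called in 18 of 18 alternatives. mt-Rnr1, the small-subunit 12S rRNA (ENSMUSG00000064337, 70 to 1024, plus strand), had 495 and 419 FPKM in controls, 675 and 818 in treated wild type and 523 and 494 in the knockout. Here the knockout overlapped the controls and treated wild type lay above both. The log2 fold change was 0.91 ± 0.16 (SE, adjusted p = 0.0184 by edgeR), called in 13 of 18 alternatives. mt-Rnr2 exceeded mt-Rnr1 by 1.08-fold and 1.16-fold in the controls and by 1.43-fold to 1.73-fold after acetaminophen, in FPKM. In these poly(A)-selected libraries the values are of the rRNA that was captured.

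The tRNA genes are 59 to 75 bases long, shorter than the library insert given in the labels, so a value for one counts longer RNA that covers it and is not the level of the mature tRNA. Of 22, 20 passed the filter, 2 rose and 0 fell in treated wild type. mt-Tl1 (2676 to 2750, plus strand), directly after mt-Rnr2, had 185 and 143 FPKM in controls, 428 and 260 in treated wild type and 373 and 506 in the knockout. Its log2 fold change was 1.29 ± 0.31 (SE, adjusted p = 0.0438 by edgeR), called in 6 of 18 alternatives with adjusted p between 0.00115 and 0.167. mt-Te (14071 to 14139, minus strand), directly beside mt-Nd6, had 778 and 590 FPKM in controls, 1236 and 1118 in treated wild type and 1083 and 1508 in the knockout. It was the highest of the tRNA genes in every library. For mt-Te the log2 fold change was 0.99 ± 0.22 (SE, adjusted p = 0.0351 by edgeR), called in 7 of 18 alternatives with adjusted p between 0.000584 and 0.132. The treated livers lay above both controls for both genes.

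The 3 neighbouring tRNA genes between mt-Nd1 and mt-Nd2 were low in every treated liver. mt-Ti (3706 to 3774, plus strand) had 106 and 90.0 FPKM in controls, 21.3 and 34.4 in treated wild type and 15.8 and 29.8 in the knockout. mt-Tq (3772 to 3842, minus strand) had 27.1 and 26.4, then 5.59 and 12.8, then 9.12 and 11.2 FPKM, and mt-Tm (3845 to 3913, plus strand) had 150 and 140, then 34.7 and 68.7, then 48.6 and 74.2 FPKM. Treated livers and controls did not overlap for any of them, but none passed in treated wild type: the log2 fold changes were -1.61 ± 0.41, -1.32 ± 0.48 and -1.28 ± 0.37 (SE, adjusted p = 0.0521, 0.121 and 0.0716 by edgeR). Lack of overlap was common: by CPM, 7 of the 35 members lay wholly below the controls in treated wild type and 13 wholly above. Its share over all genes was not computed, so here and elsewhere it is description only. All 3 were called lower by limma on log2(FPKM + 0.5), which called 1496 of 11677 genes lower. The 4 minus-strand tRNAs between mt-Nd2 and mt-Co1, for alanine, asparagine, cysteine and tyrosine, had log2 fold changes between 0.54 and 0.67, none past the threshold. mt-Tp, the last gene before the control region, had -0.52 ± 0.23 (SE, adjusted p = 0.173 by edgeR).

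Some tRNA genes had few counts. mt-Tk had 4 and 7 counts in controls, 44 and 19 in treated wild type and 31 and 47 in the knockout, and mt-Ts2 had 1 and 2, then 33 and 21, then 15 and 1. Neither passed in treated wild type (adjusted p = 0.0566 and 0.0636 by edgeR). mt-Tf had between 2 and 6 counts and mt-Tv between 0 and 4, and neither passed the filter. Fitted without the filter, neither was called in treated wild type (adjusted p = 0.976 and 0.648 by edgeR).

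**Figure D4:**
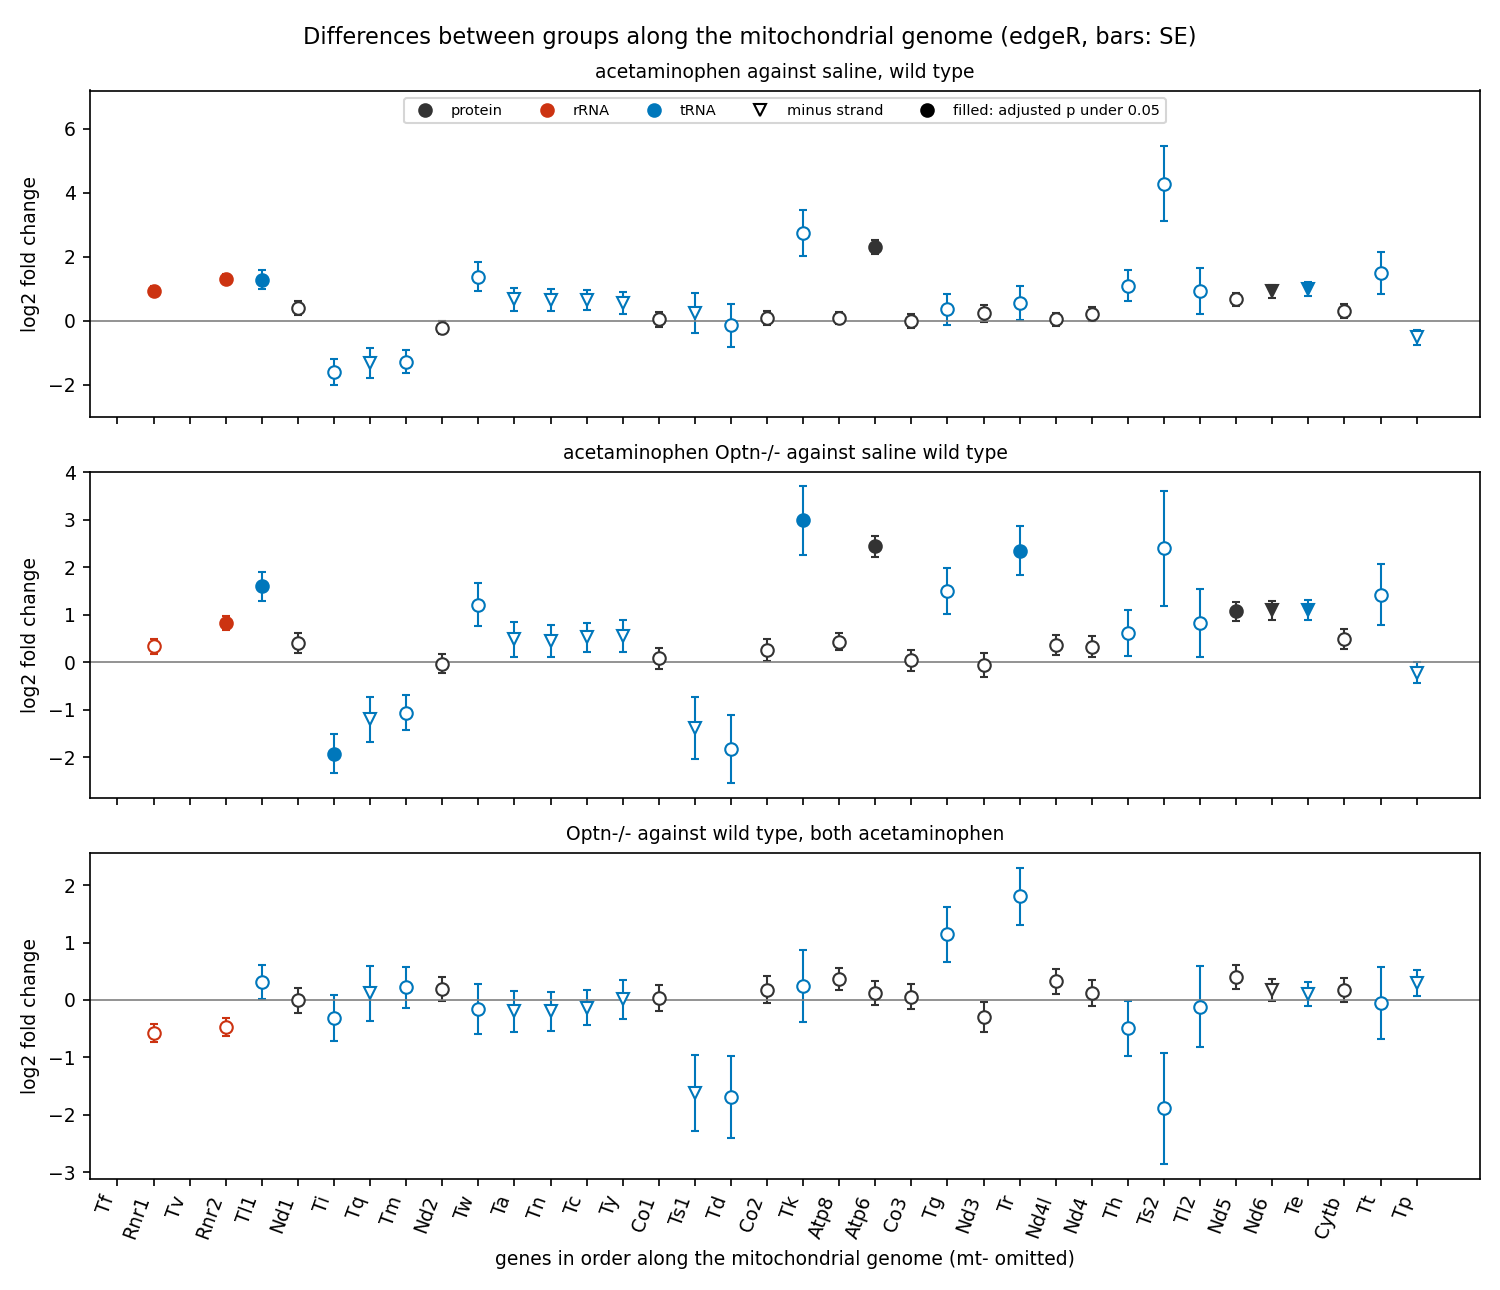
Log2 fold change (edgeR, bars: SE) of the 35 tested genes in genome order, for treated against saline wild type, treated knockout against saline wild type, and treated knockout against treated wild type (each panel with its own axis). Colour is RNA class, triangles are the minus strand and filled symbols have an adjusted p under 0.05. mt-Atp6 stands above the other protein genes in the upper panels, and no symbol is filled in the lowest.

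After acetaminophen, knockout was set against wild type. No member passed in either direction, 0 of 35, with 4 at an unadjusted p under 0.05, beside 0.103% of all genes called in either direction. DESeq2 called 1 member, mt-Rnr1, lower, but it also called more genes in all, 167 higher and 120 lower of 11677. No member was called by limma. mt-Rnr1 was lower by a log2 fold change of -0.58 ± 0.16 (SE, adjusted p = 0.489 by edgeR) and mt-Rnr2 by -0.47 ± 0.15 (SE, adjusted p = 0.509 by edgeR). The 2 knockout livers were below both treated wild-type livers for each rRNA. By CPM, 5 of the 35 members lay wholly below in this way and 5 wholly above. The share of all genes that did so was not computed, so this is description only. The 13 protein genes had log2 differences from -0.29 (mt-Nd3) to 0.40 (mt-Nd5), and mt-Atp6 had 0.13 ± 0.21 (SE, adjusted p = 0.895 by edgeR). mt-Tr, the arginine tRNA, had 12 and 13 counts in treated wild type and 47 and 44 in the knockout (log2 difference 1.80 ± 0.50 SE, adjusted p = 0.489 by edgeR). A p that misses the threshold does not show that the genotypes were alike.

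Treated knockout against saline wild type shares its controls with the first comparison, so the values are only set side by side. In it, 8 of 35 members rose and 1 fell, beside 12.2% and 8.05% of all genes. mt-Atp6 had a log2 fold change of 2.44 ± 0.22 (SE, adjusted p = 0.00256 by edgeR), or 1.07 with Gm10925 added, and was called in 18 of 18 alternatives. mt-Nd5 had 1.07 and mt-Nd6 1.09, mt-Rnr2 0.83, mt-Te 1.10 and mt-Tl1 1.60. mt-Tk (2.99) and mt-Tr (2.35) were also called, on at most 47 counts in any library. mt-Ti fell by 1.93 on the log2 scale (SE 0.41, adjusted p = 0.0258 by edgeR). mt-Rnr1 was not called, at 0.33 ± 0.16 (SE, adjusted p = 0.184 by edgeR). Without control replicate 6 the member called was mt-Atp6, and without control replicate 3 they were mt-Atp6 and mt-Te. Without knockout replicate 5 they were mt-Atp6 and mt-Nd5. Without knockout replicate 4 they were mt-Atp6, mt-Nd5, mt-Nd6, mt-Rnr2 and mt-Te. In each of these fits fewer of all genes were called too.

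Nuclear genes that act on the mitochondrial genome or its products were described beside these, in lists chosen with earlier results of these data known. Their counts are to be read beside the 8.36% of all genes that rose and the 5.92% that fell in treated against saline wild type. Of 20 transcription and nucleoid genes, 16 were tested in treated against saline wild type, 0 rose and 2 fell, with a median log2 fold change of -0.26 beside 0.03 over all genes. Twnk, the mitochondrial DNA helicase, fell from 7.79 and 7.00 FPKM to 2.53 and 2.92 (log2 fold change -1.23 ± 0.15 SE, adjusted p = 0.00826 by edgeR). Tfb1m, which methylates the 12S rRNA, fell by 0.87 on the log2 scale (SE 0.21, adjusted p = 0.0431 by edgeR). Tfam, which packages the genome and starts transcription, had -0.16 (adjusted p = 0.559) and the RNA polymerase gene Polrmt -0.70 (adjusted p = 0.0913), and neither passed by edgeR.

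Of 30 RNA processing genes, all were tested, 0 rose and 2 fell, with a median of -0.21, or -0.09 without control replicate 3. These were Fastkd1 (-1.29 ± 0.24 SE, adjusted p = 0.0230 by edgeR) and Ptcd2 (-0.99 ± 0.18 SE, adjusted p = 0.0228 by edgeR), both RNA-binding proteins of mitochondria. Lrpprc, which with Slirp stabilises mitochondrial mRNA, had -0.36, Slirp 0.07 and the poly(A) polymerase Mtpap 0.24, none past the threshold. For nuclear subunits of complexes I, III, IV and V, the 39 listed names matched 38 genes. All 38 were tested and 0 passed (2 at an unadjusted p under 0.05, and 2 called by DESeq2), with a median of -0.00082. By complex, as grouped in the list, the medians lay between -0.06 (complex I) and 0.03 (complex V). Of 78 mitochondrial ribosomal protein genes, 1 rose and 6 fell, with a median of -0.17. The 4 with the smallest p were Mrpl22 (-0.90), Mrpl15 (-0.90), Mrpl34 (-0.73) and Mrpl49 (-0.80). Between knockout and wild type after acetaminophen, 0 genes passed in these 4 lists by edgeR, and 1 ribosomal protein gene did by DESeq2. On library totals alone, more genes of each list were called in treated against saline wild type, where the median of all genes was -0.19. The list calls also rest on single libraries: without either control or either treated wild-type replicate, fewer ribosomal protein and RNA processing genes were called. In each of these fits fewer of all genes were called too, so these drops are not particular to the lists. The transcription list likewise had fewer called genes without either control, treated replicate 1 or either knockout library.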

How the data were processed

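Liver RNA of 6 mice was sequenced as poly(A)-selected paired ends, per the labels' protocols, which also speak of adipose tissue although the tissue label is liver. Bowtie 0.12.2 and mm8 stand in the submitters' processing notes, but the deposited coordinates of all 37 members equal GRCm38. Counter and strand setting: not given in the sources used here. Deposited counts are whole numbers that behave as estimated counts rounded up: for 99.3% to 99.6% of low single-transcript genes a count lay 0 to 1 above the value implied by FPKM. The authors' FPKM values were deposited beside them and used for levels.

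Genes with a mean of at least 0.5 FPKM (11677) were fitted with edgeR 4.0.16 (quasi-likelihood, TMM scaling, 3 group means over all 6 libraries, 3 residual degrees of freedom), with Benjamini-Hochberg adjustment over all genes and a threshold of 0.05. DESeq2 1.42.0, limma 3.58.1, other scalings and filters, added nuclear copies, a library-set term and each replicate left out served as alternatives. Scaling by the other 12 protein genes was chosen after seeing the data. On library totals alone, 724 genes were higher and 1497 lower in treated wild type in place of 976 and 691, and 1137 and 1768 in the knockout against saline in place of 1426 and 940. Copies were found by aligning GENCODE M21 transcripts. All members could be named, and of other lists those past the threshold (at most 6, ribosomal proteins 4) and 5 fixed genes. The members and lists were chosen with earlier results of these data known. Replicate pairs differed by more than sampling noise (mean chi-square per gene 77.7, 97.8 and 185.1). The fit was also run on simulated counts with the same spread setting for every gene and no division by muscle markers. That run does not test the fit on these libraries.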

Additional observations from a re-analysis of the deposited data

How the results depend on the processing

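No paired analysis was possible because the groups compared share fewer than 2 replicate numbers. With a replicate left out, the lone sample of its group is assumed to vary like the other groups. No called value changed sign in any alternative. In treated against saline wild type, the 6 members that rose became 10 with DESeq2, 3 on library totals or without the FPKM filter, 2 with the library set (muscle markers above or below 10 CPM) as a term or scaled to the other 12 protein genes, and 2 to 7 with a replicate left out. The 0 that fell became 2 with DESeq2 or on library totals, 3 with limma at each pseudocount, 1 at a mean FPKM of at least 5, and 0 to 1 with a replicate left out. In knockout against treated wild type, DESeq2 gave 1 that fell. In knockout against saline, the 8 that rose became 2 with the set term, 3 scaled to the 12 genes and 1 to 8 with a replicate left out, and the 1 that fell became 2 with DESeq2, 0 with the set term, 3, 3 and 4 with limma at pseudocounts of 0.1, 0.5 and 1, and 0 to 2 with a replicate left out. These settings also changed the calls over all 11677 genes. In treated against saline wild type, DESeq2 called 1684 higher and 1423 lower, library totals 724 and 1497, and limma (pseudocount 0.5) 696 and 1496. In knockout against saline these were 1987 and 1633, 1137 and 1768, and 1153 and 1841. Scaled to the other 12 protein genes, calls were 462 higher and 225 lower in treated against saline wild type, and 669 and 478 in knockout against saline. Without the FPKM filter, treated against saline wild type had 762 and 555 of 22290 genes. At a mean FPKM of at least 5 it had 463 and 356 of 4266. With the set term or a replicate left out, fewer of all genes were called in both directions in both comparisons. For the lists in treated against saline wild type, calls with DESeq2, library totals and limma were 7, 6 and 7 for RNA processing (2 as reported), 4, 5 and 5 for transcription (2), 2, 3 and 3 for nuclear subunits (0) and 16, 16 and 18 for ribosomal proteins (7). With the set term they were 0, 1 and 1 for RNA processing, transcription and ribosomal proteins, and at a mean FPKM of at least 5 they were 1, 0 and 1 for RNA processing, transcription and nuclear subunits. With a replicate left out, RNA processing ran from 0 to 2, transcription from 1 to 2 and ribosomal proteins from 0 to 6. In the knockout comparison DESeq2 called 1 ribosomal protein gene. With nuclear copies added, the mitochondrial share of counts was 9.16%, 9.14% and 10.01% (controls, treated wild type, knockout), and without Alb in the total it was 7.94% in treated wild type. With copies added, the percent of protein-gene counts was 6.66, 11.09 and 11.29 for mt-Atp6, 2.82, 3.93 and 4.75 for mt-Nd5 and 1.13, 1.85 and 1.94 for mt-Nd6. Without mt-Atp6, mt-Nd6 held 2.57% and 2.68% in the treated groups and mt-Nd5 6.56% in the knockout. The cause of these shifts was not tested. Of 2238 recomputed values of members and copies, 205 changed sign with no call on either side. Depth limits the tRNA genes with few counts.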
